A study of Saccharomyces cerevisiae with 4 samples.

Results

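The genes described here encode the proteins of the cytosolic ribosome of budding yeast (Saccharomyces cerevisiae) and have no row in the deposited splicing table. They were taken from the RPKM table by their R64 symbol, which had to be RPL or RPS with a number and an optional A or B, or RPP0, RPP1A, RPP1B, RPP2A or RPP2B. This gave 36 of 6659 genes, and 36 of the 137 genes with such a symbol. Of the 36 genes, 20 encode proteins of the large subunit, 12 proteins of the small subunit and 4 proteins of the stalk of the large subunit. All 36 have 1 coding segment in the R64 annotation, which shows no intron within their coding sequence, and 0 of them overlap another annotated gene. The other 101 ribosomal protein genes have a row in the splicing table, among them RPP1B, although 12 of these 101 also have 1 coding segment in R64. The 36 genes lie on 11 chromosomes, are 78 to 1164 bases long from start to stop codon, and in 24 cases have a second copy elsewhere in the genome.

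The study sequenced 1 library of RNA, depleted of ribosomal RNA, from each of 4 haploid strains in the BY4741/2 background. The strains were ume6∆snf2∆ (UME6 replaced by KanMX and SNF2 by NatMX), ume6∆ (KanMX), snf2∆ (NatMX) and wild type (WT). All 4 strains, WT included, are labelled his-, ura- and leu-, and all were grown in rich medium with dextrose to an optical density of 0.5 to 0.6. Snf2 is the ATPase of the Swi/Snf complex, which slides and evicts nucleosomes, and Ume6 is a DNA-binding protein that holds early meiotic genes silent in growing cells. The labels do not say how many clones or cultures stand behind a library. With 1 library per strain no difference below has a replicate check, and each interval covers counting error only. In bulk RNA, fewer cells that make a transcript and less of it per cell cannot be told apart.

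Ribosomal protein genes are among the most actively transcribed genes of a growing yeast cell and are controlled as a group. Rap1 binds most of their promoters and recruits Fhl1, Ifh1 and Sfp1, while a smaller number, such as RPL3 and the RPL4 pair, are driven by Abf1. Growth signals through TOR complex 1 and protein kinase A keep the group active, and starvation or stress turns it down together. Most ribosomal proteins of yeast are made from a pair of gene copies left by an ancient genome duplication.

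The libraries were scaled by the authors to 17.4 M reads for ume6∆snf2∆, 30.2 M for ume6∆, 25.7 M for snf2∆ and 27.7 M for WT, and the 36 genes had 350 to 120450 recovered reads each. SNF2 had 0.157, 36.9, 0.107 and 67.9 RPKM in ume6∆snf2∆, ume6∆, snf2∆ and WT, and UME6 had 0.137, 0.0132, 19.6 and 34.6 RPKM in the same strains, so both followed the strain names. The libraries also differed in mating type genes. Summed over 5 markers of alpha cells, the level was 8481 RPKM in ume6∆snf2∆ and 2994 in snf2∆, against 42.1 in ume6∆ and 55.3 in WT. Summed over 6 markers of a cells, it was 69.9 RPKM in ume6∆snf2∆ and 24.4 in snf2∆, against 896 in ume6∆ and 974 in WT, and 0 of these 11 genes were at 0 in any library. Loss of SNF2 and the expression of alpha-cell genes therefore cannot be told apart in any comparison below between a library with SNF2 and one without. All differences below are of log2(RPKM + 1), and "higher" or "lower" counts use a 2-fold limit on that scale, for the 6520 genes whose RPKM averaged 1 or more over the libraries. All 36 genes passed that filter.

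Most of the 36 genes were expressed far above the typical gene in every strain, with RPL15B and RPS28B nearest to it, and most were highest in ume6∆ and lowest in WT. Their median level was 1529.6 RPKM in ume6∆snf2∆, 2148 in ume6∆, 1664 in snf2∆ and 1194 in WT. The median over all 6659 genes was 40.9, 30.8, 35.9 and 39.5 RPKM in the same strains. Together the 36 genes held 6.24% of the summed RPKM of ume6∆snf2∆, 8.19% of ume6∆, 7.01% of snf2∆ and 5.50% of WT. Of the 36 genes, 28 had their highest value in ume6∆ and 26 their lowest in WT, while the other 10 were lowest in ume6∆snf2∆. Under median ratio scaling 34 were highest in ume6∆ and 23 lowest in WT, and as TPM 26 and 20. The matching counts over all genes are not given here. The median of the 101 ribosomal protein genes with a splicing row was also highest in ume6∆ (1054 RPKM) and lowest in WT (549.8 RPKM). As deposited the 10 genes lowest in ume6∆snf2∆ were RPL3, RPL10, RPL41A, RPL41B, RPP0, RPP1A, RPP2A, RPP2B, RPS12 and RPS28B.

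**Figure D1:**
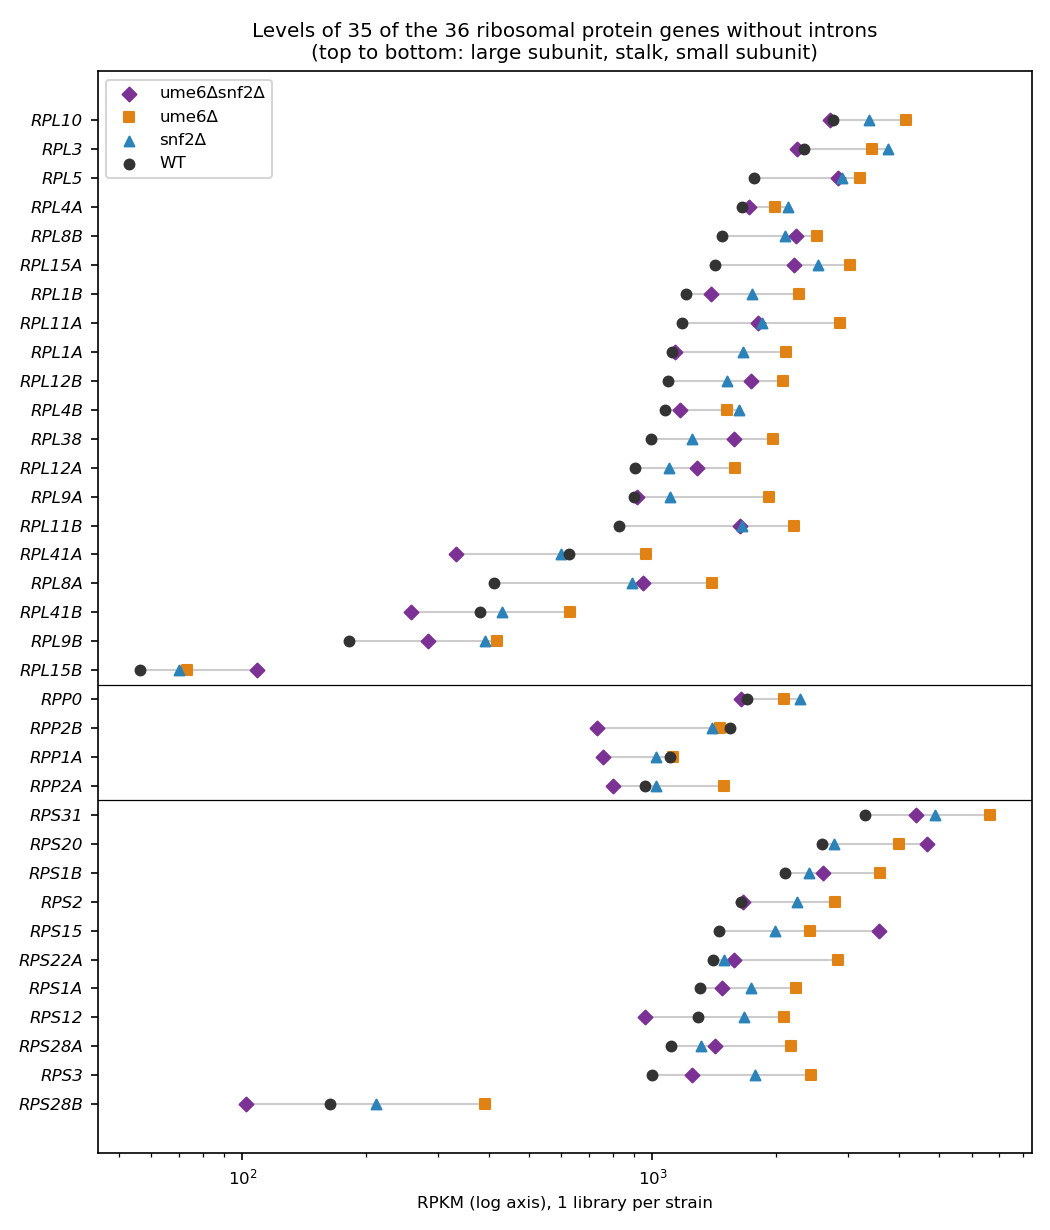
RPKM (horizontal log axis) of 35 of the 36 genes in the 4 libraries, 1 point per library, with large subunit, stalk and small subunit genes from top to bottom. In most rows the WT point lies at the left and the ume6∆ point at the right; RPS15, RPS20 and RPL15B are highest in ume6∆snf2∆.

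The same genes led in most strains. RPS31, whose product is made as a fusion of ubiquitin to a small subunit protein, had 4381 RPKM in ume6∆snf2∆, 6639 in ume6∆, 4899.5 in snf2∆ and 3302 in WT. It was the highest of the 36 genes in 3 strains and came second to RPS20 in ume6∆snf2∆. RPL10, which joins the large subunit in the last steps of its maturation, had 2718, 4147, 3369 and 2754 RPKM in ume6∆snf2∆, ume6∆, snf2∆ and WT. RPL15B was the lowest of the 36 genes in 3 strains, with 73.1 RPKM in ume6∆, 70.2 in snf2∆ and 56.3 in WT. In ume6∆snf2∆ it had 109 RPKM, and RPS28B was lowest there with 102.

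With Ume6 present, snf2∆ and WT cells were compared to see which genes differ without Snf2. Nearly all of them were somewhat higher in snf2∆, mostly by less than 2-fold. The median log2 difference over the 36 genes was 0.39, against -0.11 over all 6520 genes. Of the 36 genes 33 lay above 0 (91.7%), against 41.2% of all genes. In all, 2 of the 36 (5.56%) passed the 2-fold limit upwards and 0 passed it downwards, where 3.31% of all genes were higher and 7.96% lower. The share of higher genes is near that of all genes, and it is the median that differed.

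RPL8A, 1 of 2 genes for a protein on the surface of the large subunit, had 891 RPKM in snf2∆ and 412 in WT (log2 difference 1.11). The ratio was 2.16, with a counting interval from 2.11 to 2.22. RPL9B had 390.0 RPKM in snf2∆ and 181 in WT (log2 1.10). This is a ratio of 2.15, with a counting interval from 2.05 to 2.25. RPL11B, whose product binds the 5S ribosomal RNA, came just under the limit with 1655 RPKM in snf2∆ and 829 in WT (log2 0.996). The small subunit gene RPS3, whose product lines the mRNA entry channel, had 1779 RPKM in snf2∆ and 995 in WT (log2 0.84). The genes that stood apart were of the stalk, with RPP2B at 1399.6 RPKM in snf2∆ and 1543 in WT and RPP1A at 1019.7 RPKM in snf2∆ and 1106 in WT. RPL41A was also lower as deposited, at 598 RPKM in snf2∆ and 626 in WT (log2 -0.06), and was higher under median ratio scaling (0.04).

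In ume6∆ against WT the difference was larger and in the same direction for nearly every gene. The median log2 difference was 0.77 over the 36 genes and -0.30 over all genes. Of the 36 genes 35 lay above 0 (97.2%), against 32.7% of all genes. Past the 2-fold limit, 10 were higher (27.8%) and 0 lower, where 4.59% of all genes were higher and 15.2% lower. The count of 10 rests on the scale of the libraries: it was 24 under median ratio scaling, where 8.79% of all genes were higher, and 5 after rescaling to TPM. The share of all genes as TPM is not given here. Of the 101 ribosomal protein genes with a splicing row, 17 were higher as TPM.

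The 10 genes were RPL8A, RPL9A, RPL9B, RPL11A, RPL11B, RPL15A, RPS3, RPS22A, RPS28B and RPS31. RPL8A had 1395 RPKM in ume6∆ and 412 in WT (log2 1.76). This is a ratio of 3.39, with a counting interval from 3.31 to 3.47. Both genes for the 5S RNA-binding protein Rpl11 were among them, RPL11B with 2214 RPKM in ume6∆ and 829 in WT (log2 1.42) and RPL11A with 2869 in ume6∆ and 1182 in WT (log2 1.28). RPS3 had 2439 RPKM in ume6∆ and 995 in WT (log2 1.29). At the other end stood stalk genes and a gene driven by Abf1. RPP2B had 1458 RPKM in ume6∆ and 1543 in WT, a log2 difference of -0.08 that became 0.22 under median ratio scaling. RPP1A had 1120.1 RPKM in ume6∆ and 1106 in WT (log2 0.02, and -0.19 as TPM). RPL4A had 1989 RPKM in ume6∆ and 1653 in WT (log2 0.27).

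In ume6∆snf2∆ against WT the 36 genes were spread to both sides. The median log2 difference was 0.19, against 0.06 over all genes. Of the 36 genes 26 lay above 0 (72.2%), against 53.3% of all genes. As TPM the median was 0.070 with 20 above 0, and under median ratio scaling it was 0.13 with 23 above 0. The medians of all genes were -0.062 as TPM and 0.00012 under median ratio scaling. At the 2-fold limit 2 were higher, where 10.4% of all genes were, and 1 was lower, where 9.97% of all genes were. Both shares, 5.56% and 2.78%, are below those of all genes.

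RPS15, whose product sits in the head of the small subunit, had 3570.3 RPKM in ume6∆snf2∆ and 1455 in WT (log2 1.29). This is a ratio of 2.45, with a counting interval from 2.41 to 2.50. RPL8A had 949.8 RPKM in ume6∆snf2∆ and 412 in WT (log2 1.20), and RPL11B had 1635 in ume6∆snf2∆ and 829 in WT (log2 0.98). RPL15B, the minor gene for Rpl15, had 109 RPKM in ume6∆snf2∆ and 56.3 in WT (log2 0.94). The lower end was again led by the stalk. RPP2B had 731 RPKM in ume6∆snf2∆ and 1543 in WT (log2 -1.08). This is a ratio of 0.474, with a counting interval from 0.458 to 0.491. RPL41A had 332 RPKM in ume6∆snf2∆ and 626 in WT (log2 -0.91), RPS28B had 102 in ume6∆snf2∆ and 164 in WT (log2 -0.68), and RPL41B had 258 in ume6∆snf2∆ and 379 in WT (log2 -0.56).

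Set against ume6∆, which shares the deletion of UME6, ume6∆snf2∆ had lower levels of nearly every gene. The median log2 difference over the 36 genes was -0.58, against 0.35 over all genes. Of the 36 genes 33 lay below 0 (91.7%), against 25.8% of all genes. A count of 5 genes was at least 2-fold lower (13.9%) and 0 were higher, where 3.45% of all genes were lower and 11.1% higher. Under median ratio scaling 13 were lower, where 6.65% of all genes were.

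RPS28B had 102 RPKM in ume6∆snf2∆ and 391 in ume6∆ (log2 -1.93). This is a ratio of 0.261, with a counting interval from 0.233 to 0.291. The 2 genes for Rpl41, the shortest protein of the ribosome, came next, RPL41A with 332 RPKM in ume6∆snf2∆ and 965 in ume6∆ (log2 -1.54) and RPL41B with 258 in ume6∆snf2∆ and 629 in ume6∆ (log2 -1.28). RPS12 had 962 RPKM in ume6∆snf2∆ and 2091 in ume6∆ (log2 -1.12), and RPL9A had 916 in ume6∆snf2∆ and 1929 in ume6∆ (log2 -1.07). Only 3 of the 36 genes were higher in ume6∆snf2∆. They were RPL15B with 109 RPKM in ume6∆snf2∆ and 73.1 in ume6∆ (log2 0.57), RPS15 with 3570.3 in ume6∆snf2∆ and 2418 in ume6∆ (log2 0.56), and RPS20 with 4678 in ume6∆snf2∆ and 3998 in ume6∆ (log2 0.23). The difference of RPS20 became -0.14 under median ratio scaling.

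Next, ume6∆snf2∆ was set against snf2∆, which shares the deletion of SNF2. The median log2 difference was -0.25 over the 36 genes and 0.14 over all genes. Of the 36 genes 25 lay below 0 (69.4%), against 38.3% of all genes. The 2-fold limit was passed downwards by 1 gene (2.78%) and upwards by 0, where 2.38% of all genes were lower and 8.13% higher. Under median ratio scaling 3 were lower, where 3.59% of all genes were. The 1 gene was RPS28B, with 102 RPKM in ume6∆snf2∆ and 212 in snf2∆. The ratio was 0.480, with a counting interval from 0.425 to 0.541. RPP2B had 731 RPKM in ume6∆snf2∆ and 1399.6 in snf2∆ (log2 -0.94), RPL41A 332 in ume6∆snf2∆ and 598 in snf2∆ (log2 -0.85), and RPS12 962 in ume6∆snf2∆ and 1669.6 in snf2∆ (log2 -0.80). The small subunit genes RPS15 and RPS20 stood at the upper end, with log2 differences of 0.85 and 0.76, followed by RPL15B (0.62) and RPL38 (0.33). RPS20 had 4678 RPKM in ume6∆snf2∆ and 2769 in snf2∆.

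**Figure D2:**
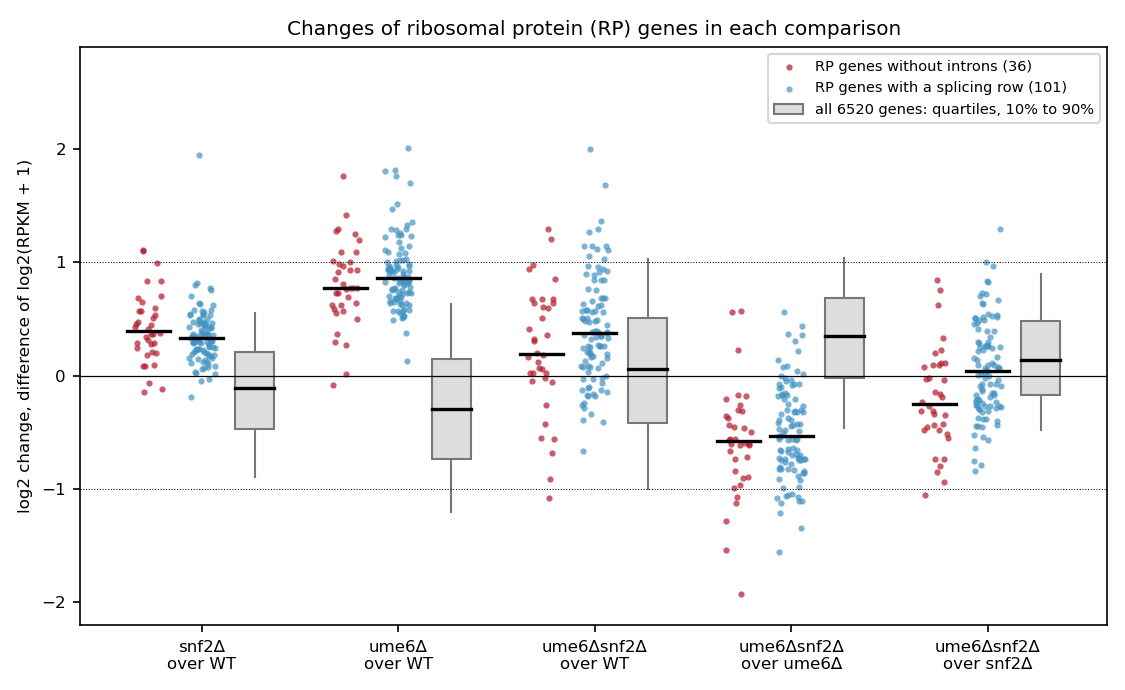
Log2 difference of each of the 36 genes (red) and of the 101 ribosomal protein genes with a splicing row (blue) in the 5 comparisons, 1 point per gene with the median as a black line, beside a box with the quartiles of all genes and whiskers from their 10% to their 90% point. The points lie mostly above 0 in snf2∆ over WT and ume6∆ over WT (medians 0.39 and 0.77) and mostly below 0 in ume6∆snf2∆ over ume6∆ (median -0.58).

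The loss of SNF2 thus went with higher levels in 1 background and lower levels in the other. In the comparisons of snf2∆ with WT and of ume6∆snf2∆ with ume6∆, which share no library, 30 of the 36 genes (83.3%) were above 0 in the first and below 0 in the second. Among all 6520 genes this combination held for 560 (8.59%), and among the ribosomal protein genes with a splicing row for 88 of 101 (87.1%). RPL15B, RPS15 and RPS20 were above 0 in both comparisons, RPS20 only as deposited and as TPM, and RPL41A, RPP1A and RPP2B were below 0 in both, RPL41A only as deposited and as TPM. The loss of UME6 was compared in the same way, by ume6∆ over WT and ume6∆snf2∆ over snf2∆. Here 24 of the 36 genes (66.7%) were above 0 in the first and below 0 in the second, against 8.59% of all genes. Another 11 (30.6%) were above 0 in both, against 24.1% of all genes. RPP2B was below 0 in both as deposited and as TPM. The ribosomal protein genes with a splicing row showed the first combination in 47 of 101 cases (46.5%). Whether the 2 backgrounds differ was not tested, since each value comes from 1 library per strain.

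The departure of ume6∆snf2∆ from the sum of both single deletions puts this into 1 value per gene. It is the log2 difference of ume6∆snf2∆ over WT minus those of ume6∆ and snf2∆ over WT. Its median over the 36 genes was -0.98, against 0.48 over all genes and -0.86 over the ribosomal protein genes with a splicing row. Of the 36 genes, 33 lay below 0, as did 1482 of all 6520 genes. At least 2-fold below lay 17 of the 36, where 3.91% of all genes did. At least 2-fold above lay 0 of the 36, where 21.5% of all genes did. Under median ratio scaling 36 lay below 0 and 32 at least 2-fold below, with a median of -1.45. As TPM 33 lay below 0 and 16 at least 2-fold below, with a median of -0.82. Of the 101 genes with a splicing row, 77 lay at least 2-fold below under median ratio scaling and 27 as TPM. The shares of all genes under these 2 scalings are not given here. As deposited the values of the 36 genes ran from -2.30 for RPS28B to 0.25 for RPL15B. RPS3 (-1.80), RPL8A (-1.67) and RPL9B (-1.66) came next to RPS28B.

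**Figure D3:**
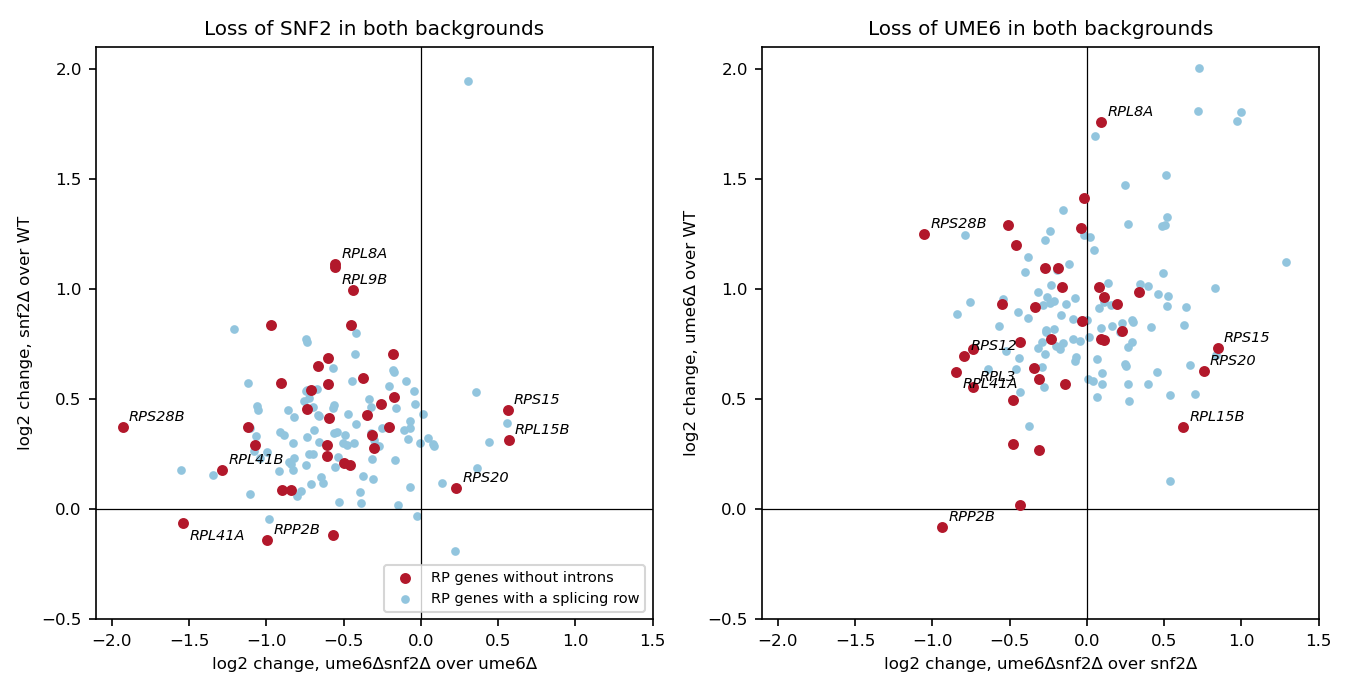
Log2 difference on loss of SNF2 (left panel) and of UME6 (right panel), with the second deletion present on the horizontal axis and absent on the vertical axis; red points are the 36 genes and blue points the 101 ribosomal protein genes with a splicing row. On the left 30 of the 36 genes lie at the upper left, above 0 without and below 0 with the UME6 deletion.

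Among the roles, the 4 stalk genes without a splicing row stood apart. The stalk recruits and activates the translation factors that use GTP, and is built on Rpp0 with pairs of the acidic proteins Rpp1 and Rpp2. The 4 stalk genes had a median log2 difference of -0.40 in ume6∆snf2∆ over WT, against 0.55 for the 20 large subunit genes and 0.24 for the 12 small subunit genes. In ume6∆ over WT the medians were 0.16 for the stalk, 0.89 for the large subunit and 0.77 for the small subunit, and in snf2∆ over WT -0.01, 0.52 and 0.37 in the same order. In ume6∆ over WT the 4 stalk genes ran from -0.08 to 0.64. The stalk median changed sign with scaling in both single deletions. In ume6∆ over WT it was 0.46 under median ratio scaling and -0.05 as TPM, and in snf2∆ over WT 0.09 and -0.09. RPP1B, the stalk gene with a splicing row, had 472 RPKM in ume6∆snf2∆, 835 in ume6∆, 679 in snf2∆ and 507 in WT. It was thus higher than WT in both single deletions. The stalk genes are short apart from RPP0, and length is taken up below.

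RPP0 had 1640.0 RPKM in ume6∆snf2∆, 2093 in ume6∆, 2288 in snf2∆ and 1703 in WT. The acidic genes were lower in ume6∆snf2∆ than in each of the other strains. RPP1A had 756, 1120.1, 1019.7 and 1106 RPKM in ume6∆snf2∆, ume6∆, snf2∆ and WT, RPP2A had 802, 1495, 1018 and 958, and RPP2B had 731, 1458, 1399.6 and 1543 in the same strains. RPP2B was the only 1 of the 36 genes with its highest value in WT as deposited, and its 3 values with at least 1 of the proteins present lay close together.

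RPP0 was also 1 of 4 genes with their highest value in snf2∆, together with RPL3, RPL4A and RPL4B. RPL3, which shapes the peptidyl transferase centre, had 2258 RPKM in ume6∆snf2∆, 3431 in ume6∆, 3759.5 in snf2∆ and 2339 in WT. RPL4A had 1722, 1989, 2138 and 1653 RPKM in ume6∆snf2∆, ume6∆, snf2∆ and WT, and RPL4B had 1169, 1519, 1629 and 1076. These 4 are also the longest of the 36 genes, at 1164, 1089, 1089 and 939 bases for RPL3, RPL4A, RPL4B and RPP0. The order of snf2∆ and ume6∆ in them rests on the scaling, since under median ratio scaling 0 of the 36 genes were highest in snf2∆ and 34 were highest in ume6∆.

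Gene length moved with the differences. The 12 genes under 450 bases had a median log2 difference of -0.34 in ume6∆snf2∆ over WT, and the 24 longer genes 0.32. In snf2∆ over WT the median was 0.14 for the shorter genes and 0.52 for the longer. In ume6∆ over WT it was 0.71 for the shorter genes and 0.83 for the longer, and in ume6∆snf2∆ over ume6∆ it was -0.87 for the shorter and -0.53 for the longer. The limit of 450 bases was chosen after the values were seen. Over all genes, those under 150 bases had a median of -0.68 in ume6∆snf2∆ over WT, those of 150 to 300 bases -0.16, and those of 300 to 450 bases 0.22. The pattern over all genes was not the same in each comparison. In ume6∆ over WT the median was -0.15 under 150 bases, -0.06 at 150 to 300 bases and -0.38 at 1000 bases or more, so that the longest genes were lowest there. RPL41A, RPL41B and RPS28B are in the first and second of these classes, and the part of length in their values was not tested. RPS15 at 429 bases and RPS20 at 366 bases are short too and lay at the upper end.

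**Figure D4:**
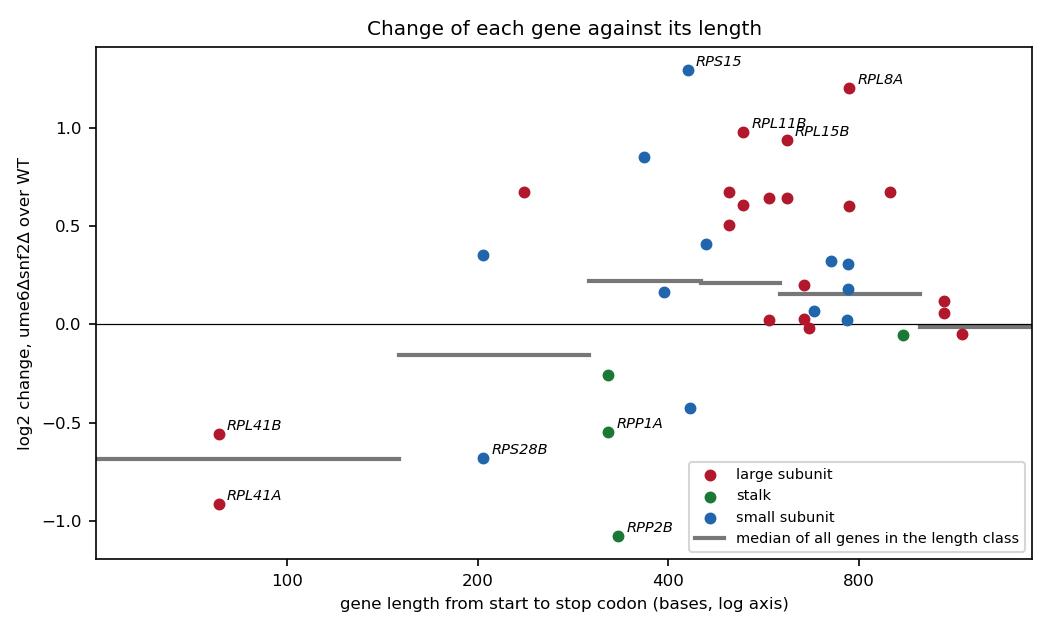
Log2 difference of ume6∆snf2∆ over WT for each of the 36 genes against its length in bases (log axis), coloured by role, with grey bars for the median of all genes in the same length class. The shortest genes, RPL41A and RPL41B, lie near the bar of their class at -0.68, while RPS15 at 1.29 and RPP2B at -1.08 lie far from the bars of theirs.

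Paralog pairs differed in which copy carried the level. Counting pairs with at least 1 copy among the 36 genes there were 13, and in 11 of them both copies were. The share of copy A in the summed RPKM moved most in the RPP2 pair, where RPP2A held 52.3% in ume6∆snf2∆ (interval 51.3% to 53.4%), 50.6% in ume6∆, 42.1% in snf2∆ and 38.3% in WT (37.7% to 38.9%). The main copy was thus RPP2B in snf2∆ and WT, and the copies were close to equal in both strains without UME6. RPL8A held 29.8% of the RPL8 pair in ume6∆snf2∆, 35.6% in ume6∆, 29.8% in snf2∆ and 21.8% in WT, so that the minor copy had its smallest share in WT. RPP1A, whose partner RPP1B has a splicing row, held 61.6% in ume6∆snf2∆, 57.3% in ume6∆, 60.0% in snf2∆ and 68.5% in WT. The RPKM of RPP1B is per base of its full span, intron included, which raises the share of RPP1A. In recovered reads RPP1A had 4231 and RPP1B 5118 in ume6∆snf2∆, and 10845 and 15661 in ume6∆. They had 8398 and 10831 in snf2∆, and 9838 and 8751 in WT. By reads RPP1B was thus the larger copy in every strain but WT. After the RPL9 pair came RPS28, with RPS28A at 93.3% in ume6∆snf2∆, 84.8% in ume6∆, 86.1% in snf2∆ and 87.2% in WT. Over the strains the shares moved by 14.0 percentage points in the RPP2 pair and by 2.32 to 13.8 in the others. These shares do not change with the scaling of a library.

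**Figure D5:**
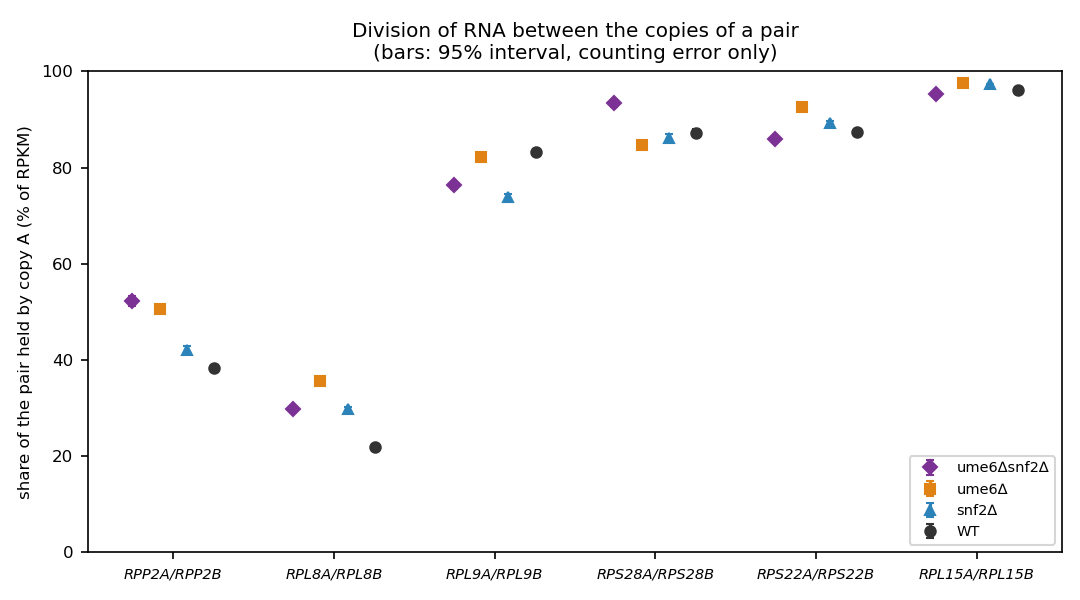
Share of copy A in the summed RPKM of 6 of the paralog pairs (percent) in the 4 libraries, 1 point per library, with 95% counting intervals as bars. RPS22B has a splicing row and its RPKM is per base of its full span, intron included, which raises the share of RPS22A. In ume6∆snf2∆ that share was 85.8%, with 10802 reads for RPS22A and 3977 for RPS22B. The RPP2 pair spans 38.3% to 52.3% and the RPL8 pair 21.8% to 35.6%, while RPL15A holds over 95% of its pair in each library.

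How far reads can tell the copies apart depends on their sequences, and the treatment of reads that fit both is not given in the sources used here. The coding sequences of RPL1A and RPL1B were identical at 99.4% of bases, those of RPL4A and RPL4B at 98.9% and those of RPL11A and RPL11B at 97.0%, with identical runs of 315, 422 and 326 bases. The split of reads within these pairs is uncertain, and the sum of each pair is the safer value. RPP2A and RPP2B were identical at 73.6% of aligned bases with no identical run over 30 bases, and RPL8A and RPL8B at 95.1% with runs of up to 91 bases. The Rpl41 genes are shown because they encode only 25 amino acids and give the extreme case. They differ at 1 of 78 bases, printed as a capital, and the coding sequences are from RefSeq R64 (sacCer3), chrIV:130407-130484 and chrIV:221724-221801, both on the minus strand.
RPL41A: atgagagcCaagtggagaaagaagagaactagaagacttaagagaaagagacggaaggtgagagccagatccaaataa
RPL41B: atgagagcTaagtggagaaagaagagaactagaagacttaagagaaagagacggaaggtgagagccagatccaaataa
Both copies had their lowest value in ume6∆snf2∆, as described above, and the sum of the pair was 589 RPKM in ume6∆snf2∆, 1594 in ume6∆, 1027 in snf2∆ and 1005 in WT. These values rest on few reads, with 350 reads for RPL41B and 451 for RPL41A in ume6∆snf2∆.

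The RPS28 pair is shown as the opposite case, since its copies can be told apart and behaved differently. RPS28B is known for controlling its own mRNA, whose end region binds the Rps28 protein and is then decapped with the help of Edc3. RPS28A had 1424 RPKM in ume6∆snf2∆, 2173 in ume6∆, 1316 in snf2∆ and 1113 in WT, and RPS28B had 102, 391, 212 and 164 RPKM in the same strains. RPS28A was therefore lowest in WT, and RPS28B was lowest in ume6∆snf2∆. The coding sequences differ at 24 of 204 bases, in capitals below, and are from RefSeq R64, chrXV:648804-649007 on the minus strand for RPS28A and chrXII:673131-673334 on the plus strand for RPS28B.
RPS28A: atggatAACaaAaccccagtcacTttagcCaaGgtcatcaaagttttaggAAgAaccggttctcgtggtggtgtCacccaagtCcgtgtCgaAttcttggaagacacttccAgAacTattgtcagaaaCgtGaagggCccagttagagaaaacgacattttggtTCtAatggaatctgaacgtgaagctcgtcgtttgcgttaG
RPS28B: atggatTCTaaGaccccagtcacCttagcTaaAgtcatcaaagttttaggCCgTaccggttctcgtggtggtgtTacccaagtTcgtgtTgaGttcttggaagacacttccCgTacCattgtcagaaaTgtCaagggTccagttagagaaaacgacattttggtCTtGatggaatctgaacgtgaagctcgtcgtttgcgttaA
RPS28B starts 307 bases after the end of RED1, a meiotic gene of the chromosome axis on the same strand. RED1 had 42.9 RPKM in ume6∆snf2∆, 23.2 in ume6∆, 10.8 in snf2∆ and 12.1 in WT, so it was highest where RPS28B was lowest. In ume6∆, where RPS28B was highest, RED1 was also above WT (log2 0.89). The part of RED1 in the values of RPS28B was not tested.

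Promoters were searched for letters of known factors in the 500 bases before each start codon, on both strands, in R64, and windows were not cut where a neighbouring gene begins. The core of the Rap1 site, ACCCNNACA, was in 10 of 36 promoters (27.8%), against 43.6% of the ribosomal protein genes with a splicing row and 5.47% of all 6000 promoters. The letters GACGC, which are linked to Fhl1, were in 24 of 36 (66.7%), against 34.7% and 30.4%. The Abf1 letters TCA and ACG, parted by 6 free bases, were in 8 (22.2%), against 15.8% and 22.7%, and the related TCG and ACG, parted by 6, in 2 (5.56%), against 7.92% and 10.4%. GGCGGC, the core of the URS1 site that Ume6 binds, was in 6 (16.7%), against 13.9% and 9.57%. RPS15 and RPP2A, which lie side by side, are counted here for the same site between them. AAAAATTTT of the RRPE element was in 6 (16.7%), against 6.93% and 9.47%, and GATGAG of the PAC element in 9 (25%), against 20.8% and 28.3%. Matches to Abf1 and Fhl1 overlapped in 1 promoter, RPL4A. In the nearer 300 bases the Rap1 core was in 4 of 36 promoters (11.1%) against 3.12% of all 6001, and GGCGGC in 2 (5.56%) against 5.20%. A match describes letters only and no binding was measured.

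The 4 promoters with the Rap1 core in the nearer window are shown because they include RPL8A and RPL11B, which were among the 4 highest in each single deletion over WT. All stretches are 80 bases on the minus strand of R64, with the core in capitals: RPL8A from chrVIII:36216-36295, RPL11B from chrVII:649098-649177, RPL38 from chrXII:781590-781669 and RPS1A from chrXII:1019099-1019178.
RPL8A: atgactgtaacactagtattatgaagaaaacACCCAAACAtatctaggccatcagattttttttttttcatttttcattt
RPL11B: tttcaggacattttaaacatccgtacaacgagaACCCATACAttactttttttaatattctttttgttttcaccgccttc
RPL38: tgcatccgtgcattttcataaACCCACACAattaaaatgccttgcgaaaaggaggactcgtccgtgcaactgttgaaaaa
RPS1A: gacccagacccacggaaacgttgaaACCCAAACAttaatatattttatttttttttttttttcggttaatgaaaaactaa
The core began 237 to 269 bases before the start codon in these 4 genes. RPL38 had 1579.5 RPKM in ume6∆snf2∆, 1965 in ume6∆, 1252 in snf2∆ and 989.9 in WT, and RPS1A had 1482, 2235, 1740.0 and 1308. In ume6∆ over WT their log2 differences were 1.76 for RPL8A, 1.42 for RPL11B, 0.99 for RPL38 and 0.77 for RPS1A, where the median of the 36 was 0.77.

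Abf1 letters are shown for RPL3 and RPL4A, which had lower differences in ume6∆ over WT, and for both RPS28 genes, which did not. The stretches are 60 bases of R64 on the coding strand with the Abf1 letters in capitals, on either strand: RPL3 from chrXV:444436-444495 (plus), RPL4A from chrII:299956-300015 (plus), RPS28A from chrXV:649138-649197 (minus) and RPS28B from chrXII:672931-672990 (plus).
RPL3: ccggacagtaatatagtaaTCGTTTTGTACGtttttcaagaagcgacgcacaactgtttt
RPL4A: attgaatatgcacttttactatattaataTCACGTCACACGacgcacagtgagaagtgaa
RPS28A: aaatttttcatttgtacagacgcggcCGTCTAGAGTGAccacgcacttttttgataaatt
RPS28B: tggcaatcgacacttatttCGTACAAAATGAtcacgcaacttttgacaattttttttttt
In ume6∆ over WT the log2 differences were 0.55 for RPL3, 0.27 for RPL4A, 0.97 for RPS28A and 1.25 for RPS28B. Genes with these letters were therefore found at both ends of that comparison.

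RPS15 and RPP2A share a promoter region, and they differed in direction in ume6∆snf2∆. They are transcribed away from each other with 719 bases between their start codons on chromosome XV. RPS15 had 3570.3 RPKM in ume6∆snf2∆, 2418 in ume6∆, 1986 in snf2∆ and 1455 in WT, and RPP2A had 802, 1495, 1018 and 958 RPKM in the same strains. Against WT the log2 difference in ume6∆snf2∆ was 1.29 for RPS15 and -0.26 for RPP2A, while in ume6∆ it was 0.73 and 0.64. The region holds the URS1 core once, 348 bases before the start codon of RPS15, and it is shown for that reason from chrXV:253898-253957 on the minus strand of R64 with the core in capitals.
RPS15: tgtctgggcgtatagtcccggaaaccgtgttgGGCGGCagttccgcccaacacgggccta
Of the 36 genes, 18 have an upstream neighbour that is transcribed away from them, at gaps of 123 to 2030 bases over all 36. RPS22A is paired in this way with RPL39, a ribosomal protein gene with a splicing row, over 630 bases. RPS22A had 1577 RPKM in ume6∆snf2∆, 2829 in ume6∆, 1492 in snf2∆ and 1405 in WT, and RPL39 had 414, 1054, 605 and 544. Both were highest in ume6∆, as 28 of the 36 genes were. In ume6∆snf2∆ over WT the log2 difference was 0.17 for RPS22A and -0.39 for RPL39, so this pair differed in direction there too.

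The genes with a splicing row gave the closest comparison. Their medians were 0.33 in snf2∆ over WT, 0.86 in ume6∆ over WT, 0.38 in ume6∆snf2∆ over WT and -0.54 in ume6∆snf2∆ over ume6∆. In ume6∆snf2∆ over snf2∆ the median of the 36 genes was -0.25, against 0.04 for the genes with a splicing row. Under median ratio scaling it was -0.41 for the 36 genes and -0.12 for the genes with a splicing row. As TPM it was -0.30 for the 36 genes and -0.01 for the others. The gap stayed at -0.29, as it must. Each scaling moves all genes of a comparison by nearly the same amount, so it cannot check the gap. The levels were set apart more clearly, with medians of 777, 1054, 730.1 and 549.8 RPKM in ume6∆snf2∆, ume6∆, snf2∆ and WT for the genes with a splicing row. The authors divided the reads of a gene with introns by its full span, introns included, which lowers its RPKM relative to that of the 36 genes.

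As deposited, genes that work with the ribosome had medians nearer to 0 than the 36 genes in both single deletions over WT, but not in every comparison. As TPM the chaperones below had -0.35 in snf2∆ over WT, against 0.32 for the 36 genes. The 32 cytosolic translation factors had a median log2 difference of -0.05 in snf2∆ over WT and 0.06 in ume6∆ over WT. The medians of all genes were -0.11 and -0.30 there. Both medians of the factors changed sign with scaling. They were 0.06 and 0.36 under median ratio scaling, and -0.12 and -0.15 as TPM. In ume6∆ over WT 1 of 32 was at least 2-fold higher (3.12%, against 4.59% of all genes). In ume6∆snf2∆ over ume6∆ 31 of the 32 factors lay below 0, as 33 of the 36 genes did, with a median of -0.32, where 25.8% of all genes lay below 0. The 1 factor at least 2-fold higher in ume6∆ over WT was SUI1, the initiation factor eIF1. It had 403 RPKM in ume6∆snf2∆, 531 in ume6∆, 296 in snf2∆ and 167 in WT. The 19 chaperones and escorts of ribosomal proteins had medians of -0.28 in snf2∆ over WT and 0.13 in ume6∆ over WT. The second of these was 0.43 under median ratio scaling and -0.08 as TPM. In ume6∆snf2∆ over snf2∆ their median was 0.33, farther from 0 than that of the 36 genes and on the other side. Of these, SQT1, the chaperone of Rpl10, was at least 2-fold higher in ume6∆, with 303.5 RPKM in ume6∆snf2∆, 304.6 in ume6∆, 156 in snf2∆ and 148 in WT. In ume6∆snf2∆ over WT, 1 of the translation factors (SUI1) and 2 of the chaperones (SQT1 and TSR2) were at least 2-fold higher. The factors' share of 3.12% is below the 10.4% of all genes, and the chaperones' share of 10.5% is near it. RRB1, the chaperone of Rpl3, had 293, 284, 198 and 210 RPKM, and ACL4, the chaperone of Rpl4, had 106, 118, 65.3 and 85.3 in the same strains.

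In ume6∆ the listed regulators of ribosomal protein genes mostly lay below WT, as most genes did. They did so in 22 of 26 cases (84.6%), against 67.3% of all genes and 1 of the 36 genes. Their median log2 difference was -0.56 in ume6∆ over WT, with 0 at least 2-fold higher and 4 lower (15.4%, against 15.2% of all genes), and 0.56 in ume6∆snf2∆ over ume6∆, with 2 higher and 0 lower (7.69%, against 11.1% of all genes). The medians of all genes were -0.30 and 0.35 in these comparisons, and under median ratio scaling those of the regulators were -0.26 and 0.21. Among the 4 lower in ume6∆ were YAK1, TOR1 and HMO1, and the 2 higher in ume6∆snf2∆ were CRF1 and SCH9. YAK1, a kinase that restrains growth, had 28.8 RPKM in ume6∆snf2∆, 20.0 in ume6∆, 48.7 in snf2∆ and 64.4 in WT. HMO1, a DNA-binding protein found at many ribosomal protein promoters, had 203, 159, 209 and 365 RPKM in the same strains. RAP1 had 79.1, 54.3, 59.7 and 71.1 RPKM, FHL1 47.8, 28.8, 33.1 and 40.4, and IFH1 76.1, 47.7, 59.5 and 82.6. As deposited these 3 were lowest in ume6∆, the library in which the median over all genes was also lowest.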

How the data were processed

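RNA-seq of 4 strains, 1 library each, was analysed. The authors deposited RPKM per gene, and splicing efficiency as a fraction per intron, of which only the gene names were used; 1 column of the splicing table that was not used at all holds cells without a number. The library kit was TruSeq V2 per the labels' protocols; it does not mark strand, so antisense reads cannot be told from those of the gene. CASAVA, STAR 2.4.0 and the build sacCer3 are named in the submitters' processing notes. Which counting tool, annotation and read filters were used is not given in the sources used here.

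Lines naming no gene (3, with 0.0811% to 0.221% of summed RPKM) were left out. Of 6659 genes, 5986 matched R64. RPKM times gene length gave whole reads for 99.5% to 99.6% of values above 0 (tolerance 0.05 reads), and 16.7 to 28.6 M reads fell in matched genes. Ratios have exact 95% Clopper-Pearson intervals from these reads, which cover counting error only, since PCR copies are not independent molecules. No count test was run, because 1 library per strain leaves no replicates. Differences are of log2(RPKM + 1), which understates those of low genes, for genes averaging 1 RPKM or more, and the limit is 2-fold.

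Genes were named by a rule: the 4 highest and 4 lowest differences per comparison, the 3 highest and 3 lowest levels per strain, every gene past the limit where 8 or fewer were, the 3 paralog pairs that moved most, and a list of genes with a textbook feature. Some values that this rule or the lists would name are not reported here. The neighbours of RPS28B, RPS15 and RPS22A, the length classes, the 500-base window, the printed stretches, RRB1, ACL4, SUI1, SQT1 and the regulators named were chosen after values were seen. The members and lists were chosen with earlier results of these data known. Alternatives were other pseudocounts, filters, scalings, a 1.5-fold limit and membership by annotation. The computations were tested on simulated data. Python 3.11.15, numpy 2.4.6, pandas 2.3.3, scipy 1.17.1, Biopython 1.88 and matplotlib 3.10.9 were used, with sequences from NCBI RefSeq R64.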

Additional observations from a re-analysis of the deposited data

Results flagged for a closer look

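The loss of SNF2 went with opposite directions in the 2 backgrounds. The median log2 difference over the 36 genes was 0.39 in snf2∆ over WT and -0.58 in ume6∆snf2∆ over ume6∆. The loss of UME6 did so too, with a median of 0.77 in ume6∆ over WT and -0.25 in ume6∆snf2∆ over snf2∆. Both rest on the same 4 libraries. For each gene the gap between backgrounds is the same value for SNF2 and UME6 (median -0.98), so they are not 2 separate observations of it. The difference between the backgrounds was not tested, because each strain has 1 library.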

How the results depend on the processing

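The 5 medians over the 36 genes kept their sign under each alternative run. Single genes and smaller lists did not all do so under the 2 scalings. Of the 36 genes, 1 changed sign in snf2∆ over WT, 2 in ume6∆ over WT, 6 in ume6∆snf2∆ over WT, 1 in ume6∆snf2∆ over ume6∆ and 5 in ume6∆snf2∆ over snf2∆, 0 of them past the 2-fold limit as deposited. The medians of the stalk and the translation factors changed sign in both single deletions over WT, that of the chaperones in ume6∆ over WT, and that of the genes with a splicing row in ume6∆snf2∆ over snf2∆. Other pseudocounts (0.1 and 5) left 15 of 15 medians and counts near their value. So did no filter on low values, a mean of at least 10 RPKM, and leaving out genes that overlap another (0 of 36). Those last 3 runs could not have come out otherwise, since they kept the same 36 genes and values. In the order snf2∆ over WT, ume6∆ over WT, ume6∆snf2∆ over WT, ume6∆snf2∆ over ume6∆ and ume6∆snf2∆ over snf2∆, the medians were 0.50, 1.08, 0.13, -0.94 and -0.41 under median ratio scaling, which brought the all-gene medians to between -0.013 and 0.00012, and 0.32, 0.57, 0.070, -0.49 and -0.30 as TPM. Under median ratio scaling 24 genes were at least 2-fold higher in ume6∆ over WT, 13 lower in ume6∆snf2∆ over ume6∆ and 3 lower in ume6∆snf2∆ over snf2∆. As TPM, 5 were higher in ume6∆ over WT and 2 lower in ume6∆snf2∆ over WT. The shares of all genes as TPM, and at the 1.5-fold limit that follows, are not given here. A 1.5-fold limit gave 9 higher in snf2∆ over WT, 28 higher in ume6∆ over WT, 12 higher and 3 lower in ume6∆snf2∆ over WT, 18 lower in ume6∆snf2∆ over ume6∆, and 3 higher and 6 lower in ume6∆snf2∆ over snf2∆, as a lower limit must. Taking the 48 genes with 1 coding segment in R64 gave a median of -0.16 in ume6∆snf2∆ over snf2∆ and shares of summed RPKM of 7.53% in ume6∆snf2∆, 9.67% in ume6∆, 8.16% in snf2∆ and 6.50% in WT. As shares of recovered reads the 36 genes held 3.78%, 5.31%, 4.28% and 3.09% in the same strains. No paired analysis was possible because each strain has 1 library, and for the same reason no library could be left out. Depth limited the ratios little, with intervals that typically reached 0.026 to 0.031 to either side on the log2 scale.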
